A study of Mus musculus with 4 samples.

Results

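The genes described here encode the lymphotoxin and tumour necrosis factor (TNF) system, with 3 ligands (Ltb, Lta and Tnf) and 3 receptors (Tnfrsf1a, Tnfrsf1b and Ltbr). They were taken by gene symbol, and all 6 were found once each among the 32285 gene features of every library. They were measured in 4 single-cell RNA libraries, made in droplets, of mouse bone marrow cells sorted as LSK (lineage-negative, Sca-1-positive, Kit-positive), the gate of blood stem cells and early progenitors. Each library was 1 pool of 5 mice aged 8 to 12 weeks. The Ikk2CA pool carried Vav1-iCre/+ with Ikk2-CA flox/+, an allele (R26StopFLikk2ca) that yields a constitutively active form of the kinase upstream of NF-κB once a stop is removed. The Jak2V617F pool carried Vav1-iCre/+ with Jak2 V617F flox/+, the activated kinase of myeloproliferative disease, and the double-mutant pool carried both floxed alleles with Vav1-iCre/+. The control pool carried Vav1-iCre/+ and neither floxed allele, so the Cre driver, which recombines in blood-forming cells, was shared by all pools. Per the series' design text an NF-κB-responsive EGFP reporter was also bred in, and the labels of the 4 samples do not say which pools held it. With 1 pooled library per genotype there is no replicate check, no test between genotypes was made, and every interval below is a 95% interval that covers counting error only.

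TNF is a trimer made at the cell surface and released by proteolysis, and it binds both TNF receptors. Tnfrsf1a encodes the receptor with a death domain, which can signal to NF-κB or to cell death, and Tnfrsf1b encodes the receptor without one. Lymphotoxin beta, the product of Ltb, anchors lymphotoxin alpha at the cell surface as a mixed trimer that binds the lymphotoxin beta receptor (Ltbr), whereas lymphotoxin alpha alone is secreted and binds the TNF receptors. Ltbr signals through both arms of NF-κB and is best known for building lymph nodes and spleen, where it sits on stromal cells and the ligand on lymphocytes. Ltb and Tnf are themselves known targets of NF-κB, and TNF is known to act on blood stem cells.

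The 3 ligand genes lie side by side in the major histocompatibility region on chromosome 17 (GRCm38, GENCODE annotation). Ltb spans chr17:35194439-35196320 on the plus strand, Tnf spans chr17:35199381-35202007 on the minus strand and Lta spans chr17:35203165-35205351 on the minus strand, so that the cluster measures 10913 bp from end to end. Tnf lies 3060 bp from Ltb and 1157 bp from Lta. Ltbr (chr6:125306571-125313885, minus strand) and Tnfrsf1a (chr6:125349362-125362484, plus strand) are neighbours on chromosome 6, 35476 bp apart, and Tnfrsf1b lies on chromosome 4 (chr4:145213463-145246870, minus strand). The annotated overlaps are a microRNA gene within Ltb (Mir6973a) and another within Lta (Mir6974), neither of which is among the counted features.

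Because Ikk2-CA acts on NF-κB, the promoters of the ligand cluster and of Tnfrsf1a are given here, from 250 bases before to 50 bases after the RefSeq gene start (GRCm38.p6, 5′ to 3′ on the strand of the gene). They are at chr17:35194257-35194556 (plus strand) for Ltb, chr17:35201958-35202257 (minus strand) for Tnf, chr17:35205302-35205601 (minus strand) for Lta and chr6:125349473-125349772 (plus strand) for Tnfrsf1a. Capitals mark every match, on either strand, to GGGNNNNNCC, a loose form of the κB motif.
Ltb promoter: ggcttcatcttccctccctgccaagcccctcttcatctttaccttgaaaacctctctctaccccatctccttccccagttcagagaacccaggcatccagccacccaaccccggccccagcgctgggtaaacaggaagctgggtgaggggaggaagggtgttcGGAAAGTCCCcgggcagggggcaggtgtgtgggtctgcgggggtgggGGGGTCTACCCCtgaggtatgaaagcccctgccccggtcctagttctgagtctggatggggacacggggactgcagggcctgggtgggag
Tnf promoter: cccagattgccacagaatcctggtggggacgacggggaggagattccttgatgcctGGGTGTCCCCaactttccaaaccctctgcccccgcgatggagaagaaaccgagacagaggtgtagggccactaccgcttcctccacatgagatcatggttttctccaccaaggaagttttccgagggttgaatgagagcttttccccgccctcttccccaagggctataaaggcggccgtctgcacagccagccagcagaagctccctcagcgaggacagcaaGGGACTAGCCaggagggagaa
Lta promoter: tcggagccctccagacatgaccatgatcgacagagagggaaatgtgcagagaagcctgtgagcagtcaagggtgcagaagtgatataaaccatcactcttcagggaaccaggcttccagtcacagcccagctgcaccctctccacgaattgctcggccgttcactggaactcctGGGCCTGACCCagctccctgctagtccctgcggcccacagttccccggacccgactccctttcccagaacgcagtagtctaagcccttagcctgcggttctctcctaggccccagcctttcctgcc
Tnfrsf1a promoter: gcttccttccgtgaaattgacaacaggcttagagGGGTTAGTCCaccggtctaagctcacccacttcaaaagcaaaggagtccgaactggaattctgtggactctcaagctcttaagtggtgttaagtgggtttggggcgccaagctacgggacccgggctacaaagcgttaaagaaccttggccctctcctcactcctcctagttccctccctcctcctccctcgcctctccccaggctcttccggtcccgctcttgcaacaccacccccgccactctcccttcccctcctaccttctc
The loose motif is common, with a match in 16686 of 32851 promoters of this length (50.8%), and all 6 genes had at least 1. A stricter form that it contains, GGGNNTTTCC, was found in 535 of those promoters (1.63%). Of the 6 genes only Ltb matched it, once, as GGGACTTTCC on the strand opposite to the gene, with its leftmost base at position −87 from the gene start, which is the first run of capitals in the Ltb sequence. A match is a run of letters and does not show that a factor binds there, and the absence of one speaks only of this window.

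After filtering, 9865 Ikk2CA, 14156 Jak2V617F, 5268 double-mutant and 8055 control cells remained, with a median of 17726, 11106.5, 24915 and 10606 UMIs (unique molecular identifiers, counted transcripts) per cell in that order. Levels are given as CPM, the UMIs of a gene scaled to a common library total, and the totals were between 102362297 and 197836491 UMIs. Of the sex-linked transcripts, Xist, the RNA that silences an X chromosome in female cells, was at 250.2, 0.257, 319.8 and 1176 CPM, and the Y-linked Ddx3y at 27.4, 49.3, 26.2 and 24.9 CPM. The pools thus differed in their share of female cells, with Xist nearly absent in Jak2V617F. In the library sums this difference cannot be told apart from genotype. Of the sort markers, Kit was at 87.6, 175, 93.5 and 149 CPM and Ly6a, which encodes Sca-1, at 233, 138, 191 and 106.0 CPM. The targeted genes Ikbkb (53.9, 67.3, 51.5 and 58.4 CPM) and Jak2 (15.6, 18.03, 11.6 and 19.8 CPM) do not tell mutant transcripts from normal ones. Any 2 libraries shared between 12 and 60 cell barcodes.

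Among the ligands, Ltb was far higher in both libraries with the Ikk2-CA allele. It was at 354.7 CPM in Ikk2CA cells and 304.1 CPM in double-mutant cells, against 88.0 CPM in Jak2V617F cells and 104.1 CPM in control cells. The ratio over control was 3.41 (interval 3.34 to 3.48) in Ikk2CA, 2.92 (2.86 to 2.98) in the double mutant and 0.846 (0.825 to 0.867) in Jak2V617F. In the Ikk2CA library Ltb stood above 98.4% of the 20424 genes with a UMI, and in the control library above 93.1% of 19266. Per kilobase of exon it was the most abundant of the 6 genes in every library, at 234, 58.1, 200.6 and 68.7 CPM per kb in Ikk2CA, Jak2V617F, double-mutant and control cells, and Tnfrsf1a came next at 11.3, 17.3, 15.4 and 20.5 CPM per kb.

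Tnf was a rare transcript in all 4 libraries, and it too was highest with Ikk2-CA alone. It was at 4.94 CPM in Ikk2CA, 2.83 CPM in Jak2V617F, 2.74 CPM in the double mutant and 1.78 CPM in control cells. The ratio over control was 2.78 (2.37 to 3.28) in Ikk2CA, 1.59 (1.34 to 1.90) in Jak2V617F and 1.54 (1.29 to 1.85) in the double mutant, so each mutant library lay above control by more than counting error. Lta, the partner of Ltb, was close to the detection limit everywhere, with 88, 30, 26 and 31 UMIs in the Ikk2CA, Jak2V617F, double-mutant and control libraries, which is 0.445, 0.164, 0.183 and 0.303 CPM. Its ratio over control was 1.47 (0.965 to 2.29) in Ikk2CA, 0.542 (0.317 to 0.926) in Jak2V617F and 0.604 (0.344 to 1.05) in the double mutant, and the first and last of these intervals include 1. The Jak2V617F value rests on few cells, and its log2 ratio of −0.88 ran from −1.68 without the cells of highest doublet score to 0.0040 with gates weighted by control shares. Per kilobase of exon Lta was at 0.322, 0.119, 0.132 and 0.219 CPM in Ikk2CA, Jak2V617F, double-mutant and control cells, the lowest of the 6 genes in each.

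The receptors were lower than in control cells or close to them. Tnfrsf1a was at 29.2 CPM in Ikk2CA cells, 44.7 CPM in Jak2V617F cells and 40.0 CPM in double-mutant cells, each below the 53.1 CPM of control cells, with ratios of 0.550 (0.530 to 0.571), 0.842 (0.813 to 0.871) and 0.752 (0.724 to 0.781). Tnfrsf1b was at 8.43 CPM in Ikk2CA and 9.31 CPM in the double mutant, against 13.2 CPM in control, and at 14.5 CPM in Jak2V617F. Its ratios over control were 0.639 (0.594 to 0.687), 0.705 (0.653 to 0.762) and 1.10 (1.03 to 1.17) in Ikk2CA, the double mutant and Jak2V617F. Ltbr was the steadiest of the 6, at 14.3, 19.2, 19.6 and 17.7 CPM in Ikk2CA, Jak2V617F, double-mutant and control cells, with ratios between 0.811 (0.764 to 0.861) in Ikk2CA and 1.11 (1.04 to 1.18) in the double mutant. These ratios move with the scaling, because the median gene stood at a log2 ratio of −0.23 in Ikk2CA, −0.24 in the double mutant and −0.0044 in Jak2V617F. Relative to that gene, the log2 ratios in Ikk2CA were −0.63 for Tnfrsf1a, −0.42 for Tnfrsf1b and −0.07 for Ltbr, and in the double mutant they were −0.18, −0.27 and 0.38.

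**Figure D1:**
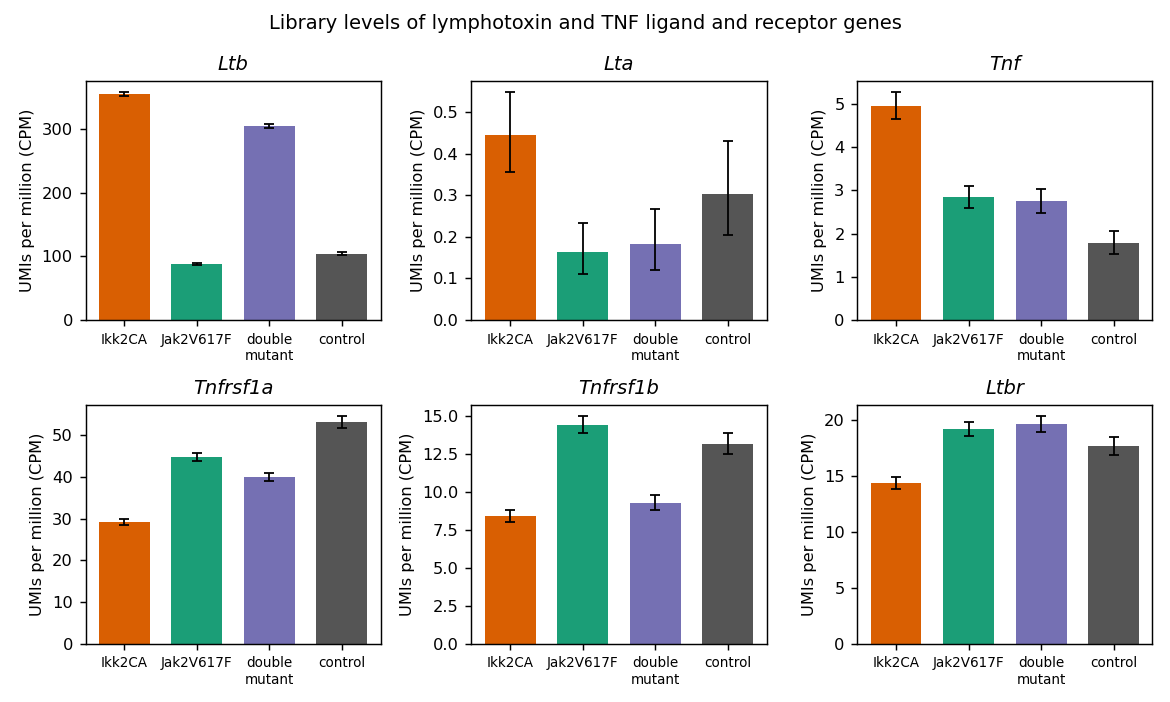
Level of each of the 6 genes in each library, in CPM, each panel with its own axis from 0; bars are library sums and error bars 95% Poisson intervals of counting error. Ltb reads 354.7 and 304.1 CPM in the Ikk2CA and double-mutant libraries against 104.1 CPM in control, whereas Tnfrsf1a reads 29.2 and 40.0 CPM against 53.1 CPM.

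Of the members that reached 10 CPM in a compared library, 1 of 4 was past 2-fold in Ikk2CA over control, where 5.5% of 8377 genes were, and 1 of 4 in the double mutant over control, where 3.27% of 8294 genes were. The member was Ltb both times. None of the 4 was past 2-fold in Jak2V617F over control, where 0.75% of 8405 genes were. Tnf and Lta never reached 10 CPM and were not counted. Among the other pairs, Ltb was again past 2-fold in the double mutant over Jak2V617F (1 of 4 members, against 1.84% of 8247 genes) and in Ikk2CA over Jak2V617F (1 of 4, against 4.89% of 8358 genes). In the double mutant over Ikk2CA none of 3 was, against 2.41% of 7752 genes. The mutants share 1 control library, so these comparisons are not independent of one another.

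After correction for depth, the shares of cells with a transcript ran in the order of the library levels for Ltb, Tnf, Tnfrsf1a and Tnfrsf1b. With every cell of at least 5000 UMIs thinned to 5000, an Ltb UMI was seen in 68.1% of Ikk2CA, 30.7% of Jak2V617F, 64.6% of double-mutant and 36.7% of control cells. Without thinning the shares were 87.1%, 47.8%, 88.0% and 50.2%. The thinned order of Ltb is that of its CPM, whereas without thinning the deeper double mutant came first. A Tnf UMI was seen in 2.34%, 1.46%, 1.09% and 0.928% of thinned cells, and a Tnfrsf1a UMI in 13.9%, 20.1%, 18.4% and 24.6%. For Tnfrsf1b the shares were 4.45%, 7.21%, 4.76% and 6.55%, and for Ltbr 6.86%, 9.46%, 9.22% and 8.74%. Without thinning, Tnfrsf1a was seen in 39.0%, 41.0%, 61.0% and 45.3% of cells, so that the double mutant, the deepest library per cell, came first although its CPM was below that of control. Lta was seen in 27 of 9460, 6 of 12795, 3 of 5122 and 10 of 7217 thinned cells.

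The excess of Ltb was spread over many cells rather than held by a few. Among thinned cells, 2.75% of Ikk2CA and 1.70% of double-mutant cells held 10 or more Ltb UMIs, against 0.172% of Jak2V617F and 0.125% of control cells. The median cell held 1 Ltb UMI in the Ikk2CA and double-mutant libraries and 0 in the Jak2V617F and control libraries. The top 1% of cells carried 6.13% and 6.37% of the Ltb UMIs in Ikk2CA and double-mutant cells, against 13.6% in Jak2V617F and 11.0% in control cells. Such a share tends to fall as the mean count rises, and the means were 2.36, 1.98, 0.574 and 0.723 UMIs in that order. It therefore does not show separately how the excess was spread. In stem-gated cells, defined below, 4.85% of Ikk2CA cells had no Ltb UMI, and neither had 54.4% of Jak2V617F, 24.1% of double-mutant and 44.6% of control cells.

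**Figure D2:**
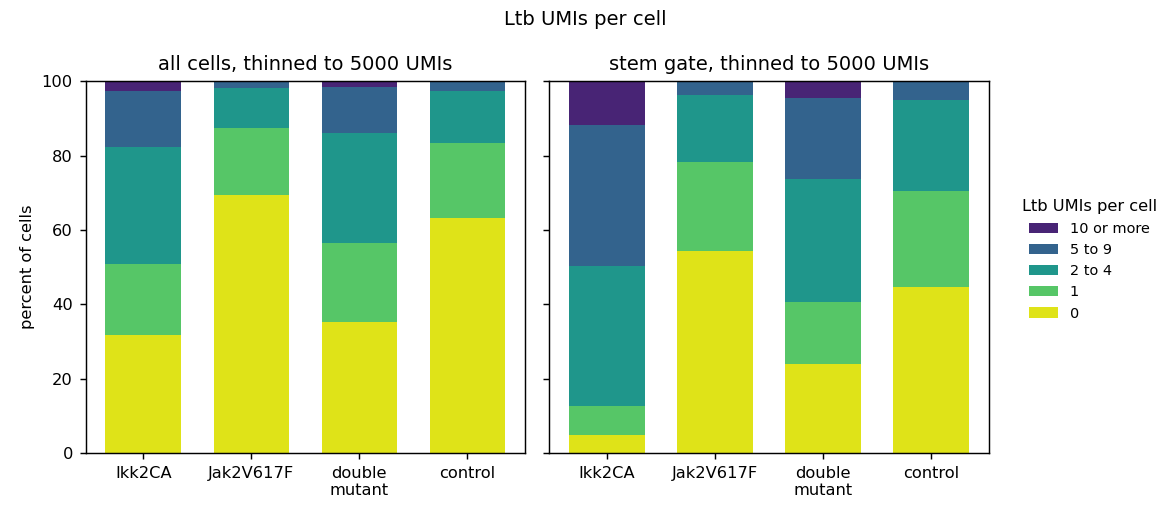
Percent of cells (vertical axis) with 0, 1, 2 to 4, 5 to 9, or 10 or more Ltb UMIs after thinning to 5000 UMIs, for all cells (left) and for cells of the stem gate (right), by library. In the stem gate 11.9% of Ikk2CA and 4.68% of double-mutant cells hold 10 or more, against 0.342% of Jak2V617F and 0.281% of control cells.

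To see which cells carried these transcripts, cells were gated on markers. A cell of at least 5000 UMIs entered the gate of the cell type with most markers detected after thinning, if it had at least 3 of them and no tie, and gates of at least 50 cells were kept. Of 14 marker lists, 6 gave a gate in all 4 libraries: stem (Hlf, Mecom and others), lymphoid-primed (Flt3, Dntt), early B (Cd79a, Ebf1), plasmacytoid dendritic (Siglech, Irf8), granulocyte-monocyte (Elane, Mpo) and megakaryocyte (Gp9, Itga2b). The monocyte and erythroid gates were filled in Ikk2CA, Jak2V617F and control, with 46 double-mutant cells in each, and the plasma gate (182 cells) and the T and NK gate (63 cells) in Ikk2CA alone. Many cells entered on the minimum, as 373 of 681 Ikk2CA and 801 of 1777 control cells of the stem gate did, and 31.9%, 41.2%, 48.4% and 35.3% of Ikk2CA, Jak2V617F, double-mutant and control cells stayed ungated. The plasmacytoid dendritic gate was the less certain outside Ikk2CA. Siglech was at 11.1, 0.432, 0.120 and 0.977 CPM in the same order. A lead of 1 marker over the next cell type placed 378 of 825, 166 of 199, 72 of 111 and 105 of 120 of its cells. The median number of its markers per cell was 5, 3, 4 and 3. The makeup differed: the stem gate held 7.20%, 27.4%, 15.4% and 24.6% of cells and the early B gate 13.6%, 0.485%, 1.02% and 1.82%.

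Among the 6 shared gates, Ltb was highest in the stem gate of every library and next in the lymphoid-primed gate. It was lowest in the megakaryocyte gate in Ikk2CA and in the granulocyte-monocyte gate in the other libraries. In the stem gate it was at 922 CPM in Ikk2CA, 148 CPM in Jak2V617F, 517 CPM in the double mutant and 206 CPM in control cells. In the lymphoid-primed gate it was at 655, 79.4, 413 and 113 CPM in the same order. The early B gate, of cells committed to the B lineage, had 281, 34.8, 248 and 29.97 CPM, and the plasmacytoid dendritic gate 253, 50.6, 243 and 74.5 CPM. These lie below the stem gate in each library. The granulocyte-monocyte gate had 232, 27.9, 154 and 29.7 CPM and the megakaryocyte gate 175, 37.2, 161 and 35.9 CPM. In the monocyte gate Ltb was at 91.0, 25.1 and 20.2 CPM in Ikk2CA, Jak2V617F and control, and in the erythroid gate at 136, 12.9 and 13.3 CPM. In control cells the erythroid, monocyte, granulocyte-monocyte, early B and megakaryocyte gates were the lowest, from 13.3 to 35.9 CPM. Each overlapped the next in this order within counting error. The erythroid interval (9.95 to 17.4 CPM) nevertheless lay below those of the granulocyte-monocyte (27.1 to 32.5), early B (23.0 to 38.3) and megakaryocyte (29.0 to 43.9) gates. The T and NK gate of Ikk2CA read 1487 CPM in 63 cells, which is 1.65% of the Ltb UMIs of its gated and ungated cells.

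The measured Ltb level was higher with Ikk2-CA in every gate that could be compared and in the ungated cells. The part of free RNA in these levels was not tested. Counting the ungated cells as a population of their own, the Ikk2CA to control ratio lay between 3.39 (2.84 to 4.09) in the plasmacytoid dendritic gate and 10.2 (7.74 to 13.7) in the erythroid gate, with the interval above 1 in 9 of 9 populations. In the double mutant it lay between 2.51 (2.41 to 2.61) in the stem gate and 8.29 (6.33 to 11.0) in the early B gate, above 1 in 7 of 7. Within these populations between 1.497% and 3.17% of genes were at least 2-fold higher in Ikk2CA, and between 0.831% and 1.49% in the double mutant. In Jak2V617F the ratio over control ran from 0.680 to 1.24, with the interval below 1 in 4 of 9 populations and above 1 in none. The double mutant read below Ikk2CA in 7 of 7 populations, from 0.560 in the stem gate to 0.961 in the plasmacytoid dendritic gate, with the interval below 1 in 6.

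The erythroid gate was taken as a cell type that should lack Ltb, to gauge what free RNA in the droplets could add. Its markers include the globin genes Hba-a1 (186, 22.3 and 7.14 CPM in the Ikk2CA, Jak2V617F and control libraries) and Hbb-bs (444, 69.9 and 12.4 CPM). On the minimum of 3 markers entered 130 of 277 Ikk2CA, 93 of 197 Jak2V617F and 60 of 158 control cells. Whether the gate holds the same kind of cell in each library was not tested. There an Ltb UMI was seen in 47.7% of 277 Ikk2CA cells, 8.63% of 197 Jak2V617F cells and 6.96% of 158 control cells after thinning, where the median depth before thinning was 20942, 22373 and 18729.5 UMIs. The Ltb level in that gate was 38.2%, 14.7% and 12.8% of the library level in Ikk2CA, Jak2V617F and control. For Tnfrsf1a the same shares were 37.7%, 31.3% and 26.9%, and for Ltbr 51.6%, 50.1% and 48.2%. The summed early B markers stood in that gate at 2.48%, 12.5% and 7.51% of their library level in Ikk2CA, Jak2V617F and control. The summed lymphoid-primed markers stood at 9.01%, 8.38% and 5.38%. The part of free RNA in the Ltb of this gate was not tested.

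**Figure D3:**
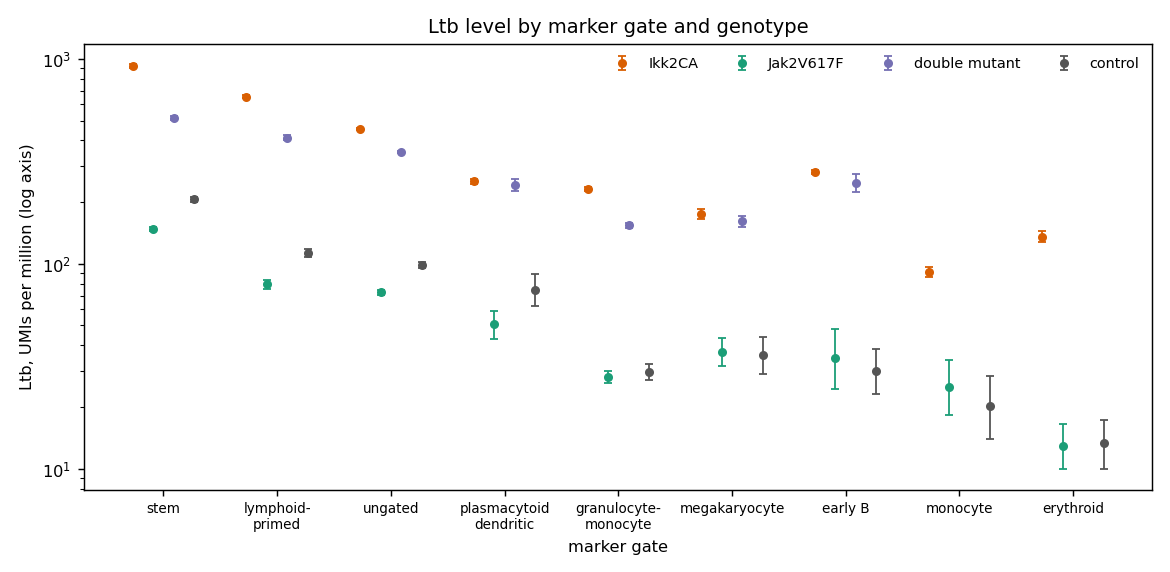
Ltb level in CPM on a log axis, by marker gate and for ungated cells, in each library; points are sums over the cells of a gate and error bars 95% Poisson intervals. The Ikk2CA and double-mutant points lie above the control point in every gate that has one, from 922 and 517 against 206 in the stem gate to 136 against 13.3 in the erythroid gate, where the double mutant had too few cells.

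Tnf was distributed differently. Among shared gates it was highest in lymphoid-primed cells, at 9.67 CPM in Ikk2CA, 5.97 CPM in Jak2V617F, 4.50 CPM in the double mutant and 3.35 CPM in control. The plasmacytoid dendritic gate, at 4.93, 5.13, 3.91 and 2.40 CPM, overlapped it within counting error in every library but Ikk2CA. In the stem gate it was at 5.18, 1.78, 1.58 and 1.22 CPM and in the granulocyte-monocyte gate at 4.65, 2.39, 2.75 and 1.70 CPM. Ikk2CA over control was 4.25 (2.52 to 7.35) in the stem gate, 2.89 (2.10 to 4.01) in the lymphoid-primed gate and 2.74 (1.82 to 4.26) in the granulocyte-monocyte gate. The ratio was above 1 in 9 of 9 populations, 1 of them against no UMI in control, with the interval above 1 in 6. In the erythroid gate Tnf had 8 UMIs in Ikk2CA, 3 in Jak2V617F and 1 in control cells, which is 1.08, 0.626 and 0.251 CPM. In the megakaryocyte gate the control cells had no Tnf UMI against 42 in Ikk2CA. The ratio is 4.48 when control is set at 3 UMIs, and the lower limit of its interval from the counts is 3.49. In the early B gate the ratio was 1.13 (0.458 to 3.59), so that no difference was detectable there at this depth. Outside the shared gates, the 63 T and NK cells of Ikk2CA read 13.03 CPM from 10 UMIs.

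Lta, where it was seen, had its highest level among the shared gates in early B cells. Of the 88 UMIs of the Ikk2CA library 46 fell in the early B gate, of the 30 in Jak2V617F 13, of the 26 in the double mutant 4 and of the 31 in control 9. The level in that gate was 1.958, 12.2, 2.70 and 4.28 CPM in the same order, from 1283, 62, 52 and 131 cells. The most Lta UMIs in any cell of the library were 6 in Jak2V617F and 5 in control, so that few cells set these levels. Ikk2CA over control within early B cells was 0.457 (0.221 to 1.06), whereas the library ratio was above 1, and the early B gate held 13.6% of Ikk2CA against 1.82% of control cells.

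Tnfrsf1a was found in most gates and was highest in the monocyte gate, at 43.6, 57.3 and 70.9 CPM in Ikk2CA, Jak2V617F and control, although it overlapped the next gate within counting error in each (granulocyte-monocyte in Ikk2CA, stem in the others). In the stem gate it was at 37.9, 49.7, 48.5 and 60.9 CPM in Ikk2CA, Jak2V617F, double-mutant and control cells, and in the early B gate at 8.81, 9.40, 10.1 and 9.99 CPM. In control cells the stem, granulocyte-monocyte, lymphoid-primed and plasmacytoid dendritic gates, at 60.9, 58.9, 52.8 and 46.8 CPM, each overlapped the next in this order within counting error. The early B levels lay at or below those of the erythroid gate, at 11.0, 14.0 and 14.3 CPM in Ikk2CA, Jak2V617F and control. The part of free RNA in the Tnfrsf1a of either gate was not tested. Ikk2CA lay below control in 9 of 9 populations, from 0.437 (0.336 to 0.571) in the megakaryocyte gate to 0.882 (0.562 to 1.46) in the early B gate, with the interval below 1 in 7. The double mutant lay below control in 6 of 7, with the interval below 1 in those 6, and Jak2V617F in 9 of 9 with the interval below 1 in 5. These counts carry the shift of the median gene, as the library ratios do. In the stem gate that gene stood at a log2 ratio of −0.17 in Ikk2CA, −0.21 in the double mutant and −0.02 in Jak2V617F. Tnfrsf1a stood there at −0.69, −0.33 and −0.29.

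Tnfrsf1b, at most 17.2 CPM in any gate, also read lower with Ikk2-CA in most gates. Ikk2CA was below control in 8 of 9 populations, with the interval below 1 in 5, and the double mutant in 6 of 7, with the interval below 1 in 5. The exception was the early B gate in both cases, at 7.83 CPM in Ikk2CA, 8.10 CPM in the double mutant and 6.66 CPM in control. The counts of intervals again carry the shift of the median gene. In the stem gate the log2 ratio of Tnfrsf1b was −0.29 in Ikk2CA and −0.30 in the double mutant, where that gene stood at −0.17 and −0.21. Ltbr was at 19.4, 20.2, 20.3 and 20.3 CPM in the stem gates of Ikk2CA, Jak2V617F, double-mutant and control cells and at 3.70, 6.58, 4.05 and 2.38 CPM in the early B gates. Against control, its interval excluded 1 in 1 of 9 populations of Ikk2CA, the plasmacytoid dendritic gate at 0.498 (0.352 to 0.720), and in none of 7 in the double mutant. In Jak2V617F it did so in 1 of 9, the same gate, at 0.588. The cells of that gate differed between libraries in how many of its markers they held, as given above. For Tnfrsf1a and Ltbr alike, the early B gate was the lowest of the shared gates in every library. As with Tnfrsf1a, the Ltbr level there was below that of the erythroid gate, at 7.39, 9.60 and 8.52 CPM in Ikk2CA, Jak2V617F and control.

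**Figure D4:**
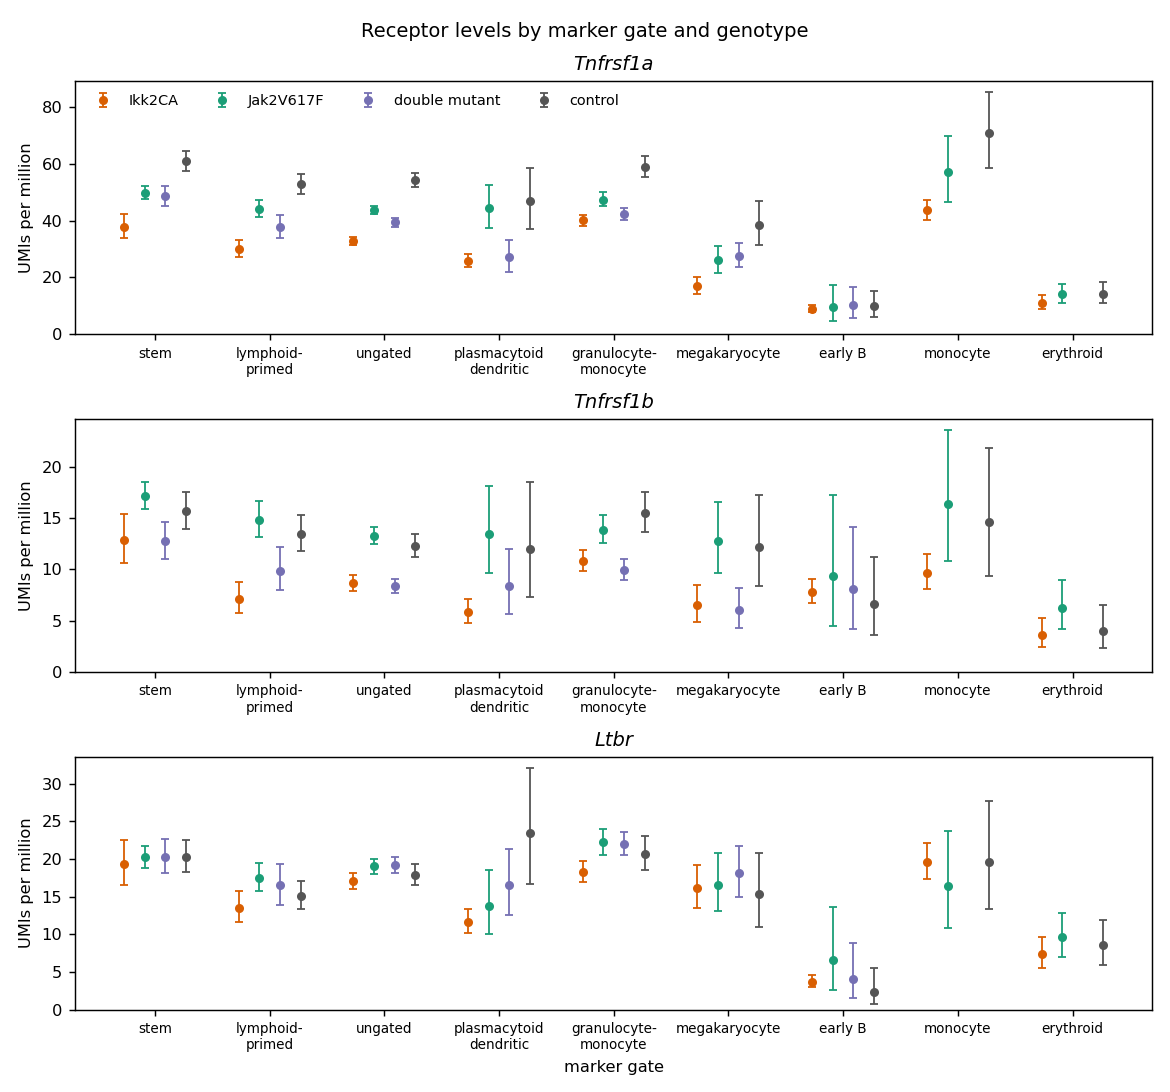
Levels of the 3 receptor genes in CPM by marker gate and for ungated cells, in each library; points are sums over the cells of a gate and error bars 95% Poisson intervals. Tnfrsf1a in Ikk2CA lies below control in every gate, as at 37.9 against 60.9 in the stem gate, while the Ltbr points of the stem gate lie between 19.4 and 20.3.

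Ligand and receptor transcripts were seen in the same cells. After thinning, 16.4% of Ikk2CA, 11.5% of Jak2V617F, 19.2% of double-mutant and 14.9% of control cells held at least 1 ligand UMI and at least 1 receptor UMI. In the same order, 68.7%, 31.7%, 65.1% and 37.4% held a ligand UMI and 23.0%, 32.9%, 29.5% and 35.4% a receptor UMI. Whether the joint shares exceed what separate detection of each would give was not tested. In control cells 27.5% of those with Ltb also had Tnfrsf1a, against 22.9% of those without, and in Ikk2CA cells 14.2% against 13.3%. For Ltb and Ltbr the shares were 7.25% against 6.03% in Ikk2CA, 10.3% against 9.11% in Jak2V617F, 9.04% against 9.54% in double-mutant and 9.66% against 8.21% in control cells, so the double mutant went the other way. For Ltb and Tnfrsf1b it did so too, at 4.74% against 4.80%. Pairs of rare transcripts were seen together in few cells, as Tnf and Tnfrsf1a were in 36 of 9460 Ikk2CA and 18 of 7217 control cells.

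The 2 alleles combined differently for different members. The double mutant can be set against the level expected if the effects of the alleles multiply, taken from both single mutants and control. For Ltb that level was 300.0 CPM and the measured one 304.1 CPM, a departure of 0.02 on the log2 scale (−0.02 to 0.06), and for Tnfrsf1b the departure was 0.01 (−0.13 to 0.15). For Tnf it was −1.52 (−1.82 to −1.23), with 2.74 CPM measured where 7.88 CPM would follow, and for Tnfrsf1a 0.70 (0.63 to 0.77), with 40.0 CPM where 24.6 CPM would follow. Both of these lay on the control side of the level that would follow. Ltbr departed by 0.33 (0.22 to 0.44) and Lta by −0.40 (−1.36 to 0.56). Over 8536 genes with at least 10 CPM in any library the median departure was 0.02, and 1.28% of them lay below the value for Tnf and 98.1% below that for Tnfrsf1a. Tnf itself did not reach that limit, so its place is among genes of higher level, whose departures have less counting error. Cell populations were counted where each library held more than 3 UMIs of the gene. Among them, Tnf departed below 0 in 5 of 5, from −2.27 to −1.25 with the interval below 0 in 4. This left out megakaryocyte cells, with no Tnf UMI in control, and early B cells, with 2 in Jak2V617F and 5 in control. The early B log2 ratios, 0.01 in the double mutant over Ikk2CA and −0.34 in Jak2V617F over control, go the other way on these few UMIs. Tnfrsf1a departed above 0 in 7 of 7, from 0.14 to 1.28 with the interval above 0 in 5. For Ltb the populations did not follow the library value: the interval lay below 0 in 3 of 7 (stem −0.36, lymphoid-primed −0.16 and granulocyte-monocyte −0.50) and above 0 in 2 (plasmacytoid dendritic 0.50 and ungated 0.08). For Ltbr the interval was above 0 in 1 of 7, the plasmacytoid dendritic gate at 1.26, and 5 of the other 6 lay between 0.05 and 0.16, below the library value of 0.33, with early B at −1.34 (−3.38 to 0.70).

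Put as the effect of adding Jak2 V617F, Tnf in the double mutant was at 0.555 (0.492 to 0.624) of the Ikk2CA level, and in Jak2V617F at 1.59 times control. Tnfrsf1a in the double mutant was at 1.37 (1.32 to 1.42) times the Ikk2CA level, and in Jak2V617F at 0.842 of control. Ltb was at 0.857 (0.847 to 0.868) of Ikk2CA in the double mutant and 0.846 of control in Jak2V617F. Put as the effect of adding Ikk2-CA, Ltb was at 3.45 (3.39 to 3.52) times Jak2V617F in the double mutant and 3.41 times control in Ikk2CA, whereas Tnf was at 0.968 (0.846 to 1.11) and 2.78.

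**Figure D5:**
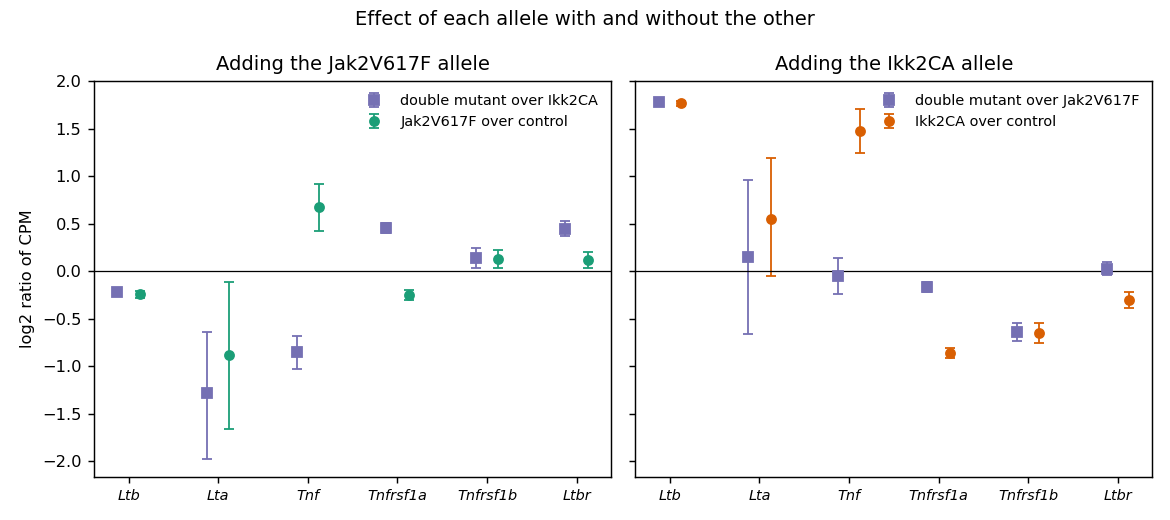
Log2 ratio of CPM for each gene when Jak2 V617F is added (left: double mutant over Ikk2CA, squares, and Jak2V617F over control, circles) and when Ikk2-CA is added (right: double mutant over Jak2V617F, squares, and Ikk2CA over control, circles), with 95% counting intervals. On the left, squares and circles lie close together for Ltb and Tnfrsf1b and lie on opposite sides of 0 for Tnf (−0.85 and 0.67) and Tnfrsf1a (0.45 and −0.25).

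Genes downstream of these receptors were described as lists, which were chosen with earlier results of these data known. Of 10 NF-κB subunits and inhibitors, 4 of the 10 measured were at least 2-fold higher in Ikk2CA over control, where 2.14% of all genes were, with a median log2 ratio of 0.89 against −0.23 over all genes. They were the noncanonical subunit Relb (34.9 against 6.31 CPM), the ubiquitin-editing inhibitor Tnfaip3 (19.5 against 4.16 CPM), the inhibitor Nfkbia (325 against 69.9 CPM) and the noncanonical subunit Nfkb2 (27.5 against 7.64 CPM). In the double mutant 3 of 9 were, where 0.832% of all genes were, namely Relb, Nfkbia and Nfkb2, with a median of 0.61 against −0.24. In Jak2V617F 0 of 7 were, where 0.297% of all genes were, and the median was 0.08 against −0.0044.

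Of 24 adaptors and kinases between receptor and NF-κB 21 were measured, and in no mutant was any past 2-fold over control, where 5.5%, 0.75% and 3.27% of all genes were in Ikk2CA, Jak2V617F and the double mutant. A count of 0 among 21 is close to those shares. Their medians were −0.31 in Ikk2CA, −0.03 in Jak2V617F and −0.28 in the double mutant, close to the medians over all genes. The lowest ratio in Ikk2CA was that of Map3k14, the kinase of the noncanonical arm, at 7.67 against 13.3 CPM, while Birc3, an inhibitor of apoptosis that NF-κB is known to induce, was at 20.4 against 14.6 CPM. Of 9 genes for TNF processing and mRNA decay 6 were measured. Zfp36, which encodes a protein that destabilises the Tnf mRNA, was at 182 against 57.0 CPM in Ikk2CA, the only one of the 6 past 2-fold over control in any mutant. It was at 99.4 CPM in Jak2V617F cells and 51.1 CPM in double-mutant cells, against 57.0 CPM in control cells. In the double mutant over Ikk2CA 2 of the 6 were past 2-fold, both lower, against 2.41% of all genes in either direction: Zfp36 (51.1 against 182 CPM) and Zfp36l1 (18.1 against 50.6 CPM), which encodes a related decay factor. In the double mutant over control all 6 were below 1 and the median was −0.51. Adam17, whose product sheds TNF from the surface, was at 16.3 CPM in the double mutant against 23.9 CPM in control.

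Most other members of both families were too low to be measured. Of 15 other ligands 2 were measured, Tnfsf10 (TRAIL) at 14.6 CPM in Ikk2CA, 24.3 CPM in Jak2V617F, 14.7 CPM in the double mutant and 20.3 CPM in control, and Tnfsf13 (APRIL) at 11.2, 18.8, 16.0 and 16.7 CPM. Of 25 other receptors 6 were measured in each mutant over control and none was past 2-fold, which with so few genes is close to the share of all genes. The death receptor Tnfrsf21 was at 16.4 CPM in Ikk2CA against 32.7 CPM in control, and Cd27, a receptor of lymphoid-primed progenitors and T cells, at 101 against 199 CPM, so both lay just inside the limit. Against the median of all genes at −0.23, the median log2 ratio of these 6 receptors in Ikk2CA was −0.56.

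Across the 32 combinations of gate and library with at least 50 cells, the genes whose log2(CPM + 1) was most like that of Ltb among 8536 genes were Shisa5 (Pearson r = 0.94), Il2rg (0.92), Pdcd1lg2 (0.88), Relb (0.87) and Sec62 (0.86). For Tnfrsf1a they were Gm14636, Fam174a, Arpc2, Manba and Tmem141 (0.92 to 0.90), for Tnfrsf1b Cpne3, Orai1, Sptbn1, Trim41 and Ino80d (0.93 to 0.89) and for Ltbr Avpi1, Npl, Ubxn8, B230118H07Rik and Cgas (0.93 to 0.91). Among the members, r was 0.88 between Tnfrsf1a and Ltbr, 0.81 between Tnfrsf1a and Tnfrsf1b, 0.62 between Ltb and Tnf and −0.03 between Ltb and Tnfrsf1a. The points share libraries, depth and cells of neighbouring kinds, so these values describe the data and carry no p-value.

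Markers of other cells moved with the genotypes, and 2 lists were higher in both Ikk2-CA libraries, as Ltb was. The 9 megakaryocyte markers summed to 507 CPM in Ikk2CA, 174 CPM in Jak2V617F, 586 CPM in the double mutant and 199 CPM in control. Most of that was Pf4, a platelet chemokine, at 444, 86.1, 509 and 99.3 CPM, while Gp6 was at 0 in Jak2V617F and the double mutant. The megakaryocyte gate held 2.07%, 1.18%, 2.37% and 0.914% of the Ltb UMIs. The 9 mast cell, basophil and eosinophil markers summed to 195, 45.9, 107 and 56.7 CPM, with Epx at 0 in the double mutant, and their part in the Ltb result was not tested. The summed early B markers were at 1264 CPM in Ikk2CA, 87.0 CPM in Jak2V617F, 109.8 CPM in the double mutant and 270.4 CPM in control, and the summed plasma markers at 13374, 276, 360.1 and 2155 CPM, with none of the 9 and 8 markers at 0. The 10 T and NK markers summed to 186, 238, 227 and 240 CPM, most of it from Nkg7, with Cd3e at 0 in the double mutant. The 8 macrophage markers summed to 6.28, 7.90, 10.4 and 25.1 CPM and the 7 stromal and endothelial markers to 1.22, 2.55, 1.55 and 3.24 CPM. The log2 ratio of Ltb was 1.83 in Ikk2CA and 1.53 in the double mutant without the early B, plasma, plasmacytoid dendritic, T and NK, macrophage, neutrophil and stromal gates, against 1.77 and 1.55 with all cells. It was 1.76 and 1.65 among cells with no Xist UMI and 2.28 and 1.68 with the gates weighted by their control shares. For Tnf the values without those gates were 1.62 and 0.64, against 1.48 and 0.63 with all cells, and for Tnfrsf1a −0.69 and −0.42, against −0.86 and −0.41. In sums over cells, fewer cells of a type and less RNA per cell cannot be told apart.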

How the data were processed

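The authors deposited, for each of the 4 libraries, a matrix of raw UMI counts per gene and cell barcode, made with Cell Ranger (4.0.0 per the file headers, 3.0.1 per the series' design text). The submitters' processing notes name mm10 and Seurat 4.0.0. The cell filter of the design text was applied here, keeping cells with 500 to 7500 genes and under 10% mitochondrial UMIs. Groups follow the genotype labels. Members and lists were chosen with earlier results of these data known.

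Counts were summed per library, or per marker gate and library, and divided by the total (CPM), with exact Poisson intervals. Ratios have exact conditional binomial intervals, shares of cells have Clopper-Pearson intervals, and a sum of 0 UMIs was set at 3 UMIs in a ratio. The interval of a departure from multiplying effects is a normal approximation on the log scale. Shares, and the gates, used cells thinned to 5000 UMIs, which left out 405 Ikk2CA, 1361 Jak2V617F, 146 double-mutant and 838 control cells. A gene counted as measured in a comparison with at least 10 CPM in either library, and as past the limit at 2-fold. Named genes are the members, up to 4 genes per list and mutant with the largest absolute log2 ratio over control, the 5 genes most like each member with at least 5 CPM, and gate markers.

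Scrublet called 235 Ikk2CA cells (2.38%), 3 double-mutant cells and none in Jak2V617F or control, so it did not work in 3 of 4 libraries and all cells were kept. Alternatives were TMM (edgeR 4.0.16) and median-of-ratios (DESeq2 1.42.0) factors, other cell filters, other gates, another depth for thinning and other limits on level. The tools were R 4.3.3, Python 3.11.15, scanpy 1.11.5, pandas 2.3.3, matplotlib 3.10.9, scipy 1.17.1 and numpy 2.4.6. The sums, ratios and intervals were tested on simulated data.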

Additional observations from a re-analysis of the deposited data

Results flagged for a closer look

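Tnf and Tnfrsf1a stood out because the effect of Jak2 V617F differed between the backgrounds with and without Ikk2-CA, with opposite signs in the 2 backgrounds. For Tnf the log2 ratio was −0.85 in the double mutant over Ikk2CA and 0.67 in Jak2V617F over control, a difference of −1.52. For Tnfrsf1a it was 0.45 in the double mutant over Ikk2CA and −0.25 in Jak2V617F over control, a difference of 0.70. With 1 library per genotype these differences were not tested across animals.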

How the results depend on the processing

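Without a limit on level, 2 members were past 2-fold in Ikk2CA over control and 2 in Ikk2CA over Jak2V617F, and 1 in the double mutant over Ikk2CA, against 1, 1 and 0 with the limit. The members added were Tnf in the first comparison and Lta, with 88, 30 and 26 UMIs in Ikk2CA, Jak2V617F and double-mutant cells, in the others. Over all genes that setting gave 1604 higher and 3522 lower, 2394 and 3087, and 2126 and 2695 in the same comparisons. The genes with a UMI were 20424 in Ikk2CA, 20319 in Jak2V617F, 19236 in the double mutant and 19266 in control. A sizeable part of all genes thus passed at this setting, and the member counts are not read as a result. Under the 8 alternatives the log2 ratio of Ltb ran from 1.70 to 2.28 in Ikk2CA over control and from 1.42 to 1.87 in the double mutant over control, and that of Tnfrsf1a from −0.95 to −0.59 and from −0.43 to −0.09. For Tnf these ranges were 1.43 to 1.80 and 0.58 to 0.95. TMM moved the Ikk2CA and double-mutant ratios over control up by 0.25 each and median-of-ratios factors by 0.28 and 0.32. With either, Tnf and Tnfrsf1a in the double mutant over Jak2V617F changed sign, reaching 0.27 and 0.15. Lta changed sign in 5 of 6 comparisons when gates were weighted by control shares: to −0.16 in Ikk2CA over control, 0.0040 in Jak2V617F over control, 0.09 in the double mutant over Ikk2CA, −0.08 in the double mutant over Jak2V617F and −0.17 in Ikk2CA over Jak2V617F. Without the lineage gates it was −0.09 in Ikk2CA over control. The cause was not tested. The departure from multiplying effects ran from −1.87 to −1.45 for Tnf and from 0.54 to 0.79 for Tnfrsf1a, with no change of sign, and from −0.22 to 0.31 for Ltb, with 4 changes.

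Over all genes, 179 were at least 2-fold higher and 282 lower in Ikk2CA over control, against 248 and 123 with TMM and 259 and 113 with median-of-ratios factors. In the double mutant over control the counts were 69 and 202, against 122 and 91 and 143 and 79. With at least 50 CPM, 77, 9 and 24 genes were higher in Ikk2CA, Jak2V617F and the double mutant over control, and 1604, 1008 and 1384 with no limit, against 179, 25 and 69. Of 288 member ratios 190 stayed within their counting interval and 98 moved out of it. Levels under 1 CPM, as for Lta, rest on few UMIs and limit what depth can show. No paired analysis was possible because each genotype has 1 library and the labels give no replicate numbers that pair them.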
